A study of Mus musculus with 27 samples.

Results

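P3 cells from skeletal muscle were compared with P3 cells from the periosteum, the tissue that covers the bone, with 3 libraries of each. The 6 libraries were taken by their labels, as every P3 library of these tissues, from the 27 libraries of the series, and no measured value was used to choose them. P3 cells are the CD105+ fraction, with CD200 at any level, of the Prx1+ CD45- cells sorted from the hindlimb. CD105, encoded by Eng, is a co-receptor for BMP and TGF-beta ligands, and CD45, encoded by Ptprc, marks leukocytes. The sort also gave P1 cells (CD105- CD200+) and P2 cells (CD105- CD200-), which were used here only to ask where the tissue difference of P3 cells was not the same in them. All libraries, both tissues included, came from Prx1-CreER/Ai14/Rag1 mice, in which CreER driven by the Prx1 promoter turns on tdTomato in Prx1 cells and in the cells they give rise to, and which lack Rag1, a gene needed for mature lymphocytes. The mice were 8 to 12 weeks old, of both sexes, were given 2 doses of tamoxifen and were harvested 3 days after the last. The muscle digest lasted 60 minutes and that of periosteum 20 minutes, so the tissue and the time of digestion cannot be told apart. By the deposited design the tissues and subpopulations share their animals, but the animal behind each library is not stated, and the tests treated the libraries as independent.

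The periosteum holds progenitor cells that form bone and cartilage in growth and fracture repair. Skeletal muscle holds interstitial mesenchymal cells, often called fibro-adipogenic progenitors, that make extracellular matrix, secrete cytokines after injury and can form bone under BMP stimulation. CD105 is also carried by endothelial cells and by part of the erythroid and stromal cells. The gene groups below are described by how many members were differentially expressed genes (DEGs), the genes whose adjusted p was under 0.05 and whose log2 fold change exceeded 1.5 in size. Fold changes are muscle P3 minus periosteum P3 on log2(normalized count + 1), so a positive value is a higher level in muscle. Adjusted p-values are from limma fitted to all 27 libraries, whose 9 groups share a single estimate of spread per gene.

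Of 18442 genes tested, 645 were DEGs (3.5%), of which 488 (2.65%) were higher in muscle P3 and 157 (0.851%) were higher in periosteum P3. All 3 muscle libraries stood above all 3 periosteum libraries for 20.6% of the genes, and the reverse held for 8.38%. All genes together had a median log2 fold change of 0.68. Quantile normalization, which gives each library the same distribution, moved this median to -0.05 and gave 269 DEGs (1.46%) higher in muscle and 328 (1.78%) higher in periosteum. Of the DEGs as deposited, 244 of those higher in muscle and 157 of those higher in periosteum were also called with quantile normalization. The muscle libraries had values above 0 for 19938 to 20299 genes, and the periosteum libraries for 15245, 12396 and 16585 genes in the order of replicates 1, 2 and 3. The median SD of a gene over replicates was 0.418 in muscle P3 and 1.14 in periosteum P3, on the log2 scale. Correlations between replicates were 0.947 to 0.955 in muscle and 0.718 to 0.827 in periosteum. Of the 488 DEGs higher in muscle, 163 had a 0 in each of the 3 periosteum libraries and 249 had a mean below 100 in muscle, where 3 of the 157 DEGs higher in periosteum had a mean below 100 in periosteum. Fewer detected genes in periosteum thus went with the calls higher in muscle, and their part in these calls was not tested. Periosteum replicate 2 stood apart by its number of genes, and without it 192 DEGs were higher in muscle and 122 higher in periosteum, among them 161 and 91 of the original calls. The total of DEGs also moved when a muscle library was left out, to 273 without replicate 1, 234 without replicate 2 and 248 without replicate 3, and to 1218 without periosteum replicate 3.

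**Figure D1:**
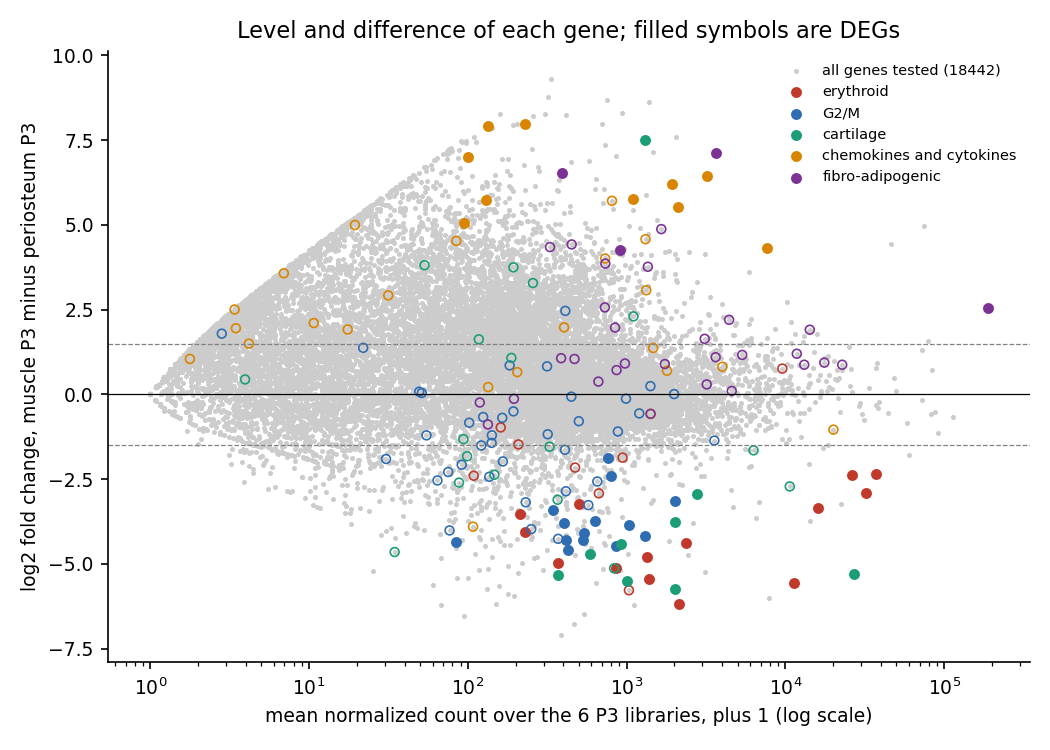
Each point is a gene tested, with its mean normalized count over the 6 P3 libraries on the x axis (log scale) and its log2 fold change, muscle P3 minus periosteum P3, on the y axis. Members of 5 gene lists are coloured and filled where they were DEGs, and dashed lines mark a log2 fold change of 1.5 in each direction. The erythroid and G2/M members that were DEGs lie below the lower line, and the chemokine and cytokine members that were DEGs lie above the upper line.

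The level of the sorted markers was read first. In the order of replicates 1, 2 and 3, used for all values below, Prrx1, the gene of the Prx1 transcription factor, had 712, 934 and 808 normalized counts in muscle and 1649, 2183 and 1153 in periosteum. The periosteum libraries were all above the muscle libraries, and the difference did not pass the test (log2 fold change -0.98 ± 0.83 (SE), adjusted p = 0.567). Eng was at 6067, 5621 and 4523 in muscle and 6206, 7328 and 3763 in periosteum, with overlapping groups and a log2 fold change of -0.05 ± 1.14 (SE). Cd200 was at 8339.8, 6525 and 6947 in muscle and 5554, 4326 and 3700.4 in periosteum, and each muscle library was above each periosteum library (adjusted p = 0.762). Ptprc, which the gate removes, was low in both, with 26.1, 35.7 and 15.5 in muscle and 4.2, 2.8 and 19.7 in periosteum. The row of the table named as a transgene was above 0 in every library, with 5387, 14708 and 15831 normalized counts in muscle and 11165, 11837 and 6153 in periosteum, and these ranges overlapped.

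Endothelial transcripts were abundant in both groups and did not separate them at the thresholds used. None of the 20 endothelial genes tested was a DEG by limma, where 2 had an unadjusted p below 0.05, both in the direction of muscle, and the median log2 fold change was 0.95 beside 0.68 for all genes. Pecam1, an adhesion molecule of endothelial junctions, was at 10537, 6067 and 8460 in muscle and 8136, 4691 and 3176 in periosteum (adjusted p = 0.58). Kdr, the main receptor for VEGF, was at 12429, 5900.3 and 8278 and 8190.5, 1772 and 3763 (adjusted p = 0.644). Flt1, another VEGF receptor, was at 9468, 5641 and 7532 and 6927, 6340.3 and 3642, and Esam, another junction molecule, was at 10500.1, 6137 and 9336 and 8062, 4856 and 5083. The groups overlapped for all 4 genes. The list summed to 0.904, 0.595 and 0.858% of the muscle libraries and 0.761, 0.39 and 0.391% of the periosteum libraries. The part of endothelial cells in these sorted fractions was not tested. In bulk samples, fewer cells of a type and less RNA per cell cannot be told apart, here and for every group below.

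Mural genes, of pericytes and smooth muscle, all had a higher mean log2 value in muscle, but none of the 16 was a DEG by limma, and 5 had an unadjusted p below 0.05. In 9 of them the muscle libraries all stood above the periosteum libraries, where this held for 20.6% of all genes, and the median log2 fold change was 2.08 as deposited and 2.20 with quantile normalization. Acta2, smooth muscle actin, was at 10888, 8305 and 10936 in muscle and 2622, 1619 and 2316 in periosteum, with an adjusted p of 0.317. Rgs5, a pericyte marker, was at 8046, 5426 and 6941 and 1417, 652 and 1298, with an adjusted p of 0.288. Tagln, an actin-binding protein of smooth muscle, was at 5274, 4894 and 5887 and 1271, 1729 and 504 without overlap (adjusted p = 0.353). The groups overlapped for Pdgfrb, the PDGF receptor of mural cells, at 5939, 4539.8 and 4582 and 2816, 5305 and 4307. With the 6 P3 libraries alone, 4 mural genes were DEGs higher in muscle, beside 1067 of all 18442 genes.

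A majority of the erythroid genes tested were DEGs higher in periosteum P3. Of 23 erythroid genes tested, 14 were DEGs higher in periosteum and 0 were DEGs higher in muscle, where 0.851% of all genes were DEGs higher in periosteum. In 18 the periosteum libraries all stood above the muscle libraries, beside 8.38% of all genes. The median log2 fold change of the list was -3.22, and -3.78 with quantile normalization. The list summed to 0.548, 0.328 and 0.36% of the muscle libraries and 2.59, 1.9 and 2.47% of the periosteum libraries, so erythroid RNA was present in both groups. The sort required the Prx1 label and no CD45 and used no erythroid marker. None of the 23 genes in the table was at 0 in all libraries of a group.

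Car1 and Car2 are carbonic anhydrases, and Car1 is abundant in red cells. Car1 was at 99.4, 24.9 and 70.3 in muscle and 4184, 4034 and 4333 in periosteum, with a log2 fold change of -6.20 ± 1.14 (SE) and an adjusted p of 0.00255. Car2 was at 743, 282 and 484 and 18882, 26763 and 20953, with a log2 fold change of -5.55 ± 0.63 (SE) and an adjusted p of 2.01e-05. For both genes the periosteum libraries lay close together and above all muscle libraries. The alpha-globin genes Hba-a1 and Hba-a2 and the beta-globin genes Hbb-bs and Hbb-bt, which encode adult haemoglobin, were DEGs as well. Hba-a1 was at 10092, 6888 and 6078 in muscle and 55420.3, 51560.4 and 62408 in periosteum (log2 fold change -2.91 ± 0.50 (SE), adjusted p = 0.00169). Hbb-bt was at 4284, 2487 and 2036 and 33218, 23338 and 30517 (log2 fold change -3.36 ± 0.56 (SE), adjusted p = 0.00134). Hba-a2 and Hbb-bs had log2 fold changes of -2.34 ± 0.52 (SE) and -2.39 ± 0.47 (SE), with adjusted p-values of 0.0128 and 0.00472. The members of each globin pair are close copies, so reads could be shared between them. Muscle replicate 1 was the highest muscle library for all 4 globin genes.

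Other erythroid members, chosen after their values were seen, moved the same way. Slc4a1, the red cell anion exchanger, was at 329.7, 98.3 and 269 in muscle and 3304, 3748 and 6361 in periosteum (log2 fold change -4.37 ± 0.75 (SE), adjusted p = 0.00169). Rhag, a membrane protein of the Rh complex, and Hemgn, an erythroid nuclear protein, had log2 fold changes of -5.11 ± 0.75 (SE) and -5.45 ± 0.75 (SE), with adjusted p-values of 0.000537 and 0.000308. No muscle library reached the periosteum range for these 3 genes. The transcription factors were less even. Klf1, an activator of erythroid genes, was at 65.6, 22.2 and 30.2 and 2022, 2430.1 and 1628, without overlap, and missed the threshold (adjusted p = 0.0503). Gata1, which drives erythroid and megakaryocyte genes, was at 42.5, 27.4 and 26.2 and 1841, 0.81 and 899, so periosteum replicate 2 was below every muscle library (adjusted p = 0.488). Outside the list, Gfi1b, a repressor needed in the same lineages, was at 13.9, 1.8 and 3.59 and 241, 438 and 368, with a log2 fold change of -5.88 ± 1.23 (SE) and an adjusted p of 0.00785. Cldn13, a claudin also outside it, was at 47.4, 10.7 and 40.6 and 2359.8, 1660.2 and 2529 (log2 fold change -6.23 ± 0.69 (SE), adjusted p = 1.65e-05). Without periosteum replicate 2, 16 erythroid genes were DEGs higher in periosteum, beside 122 of all 18442 genes. Gata1 was among these 16, with an adjusted p of 0.00434. With libraries weighted by the spread of their group, 10 erythroid genes were DEGs higher in periosteum, beside 108 of all 18442 genes.

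Part of the cell cycle genes were also DEGs higher in periosteum P3. Of 43 G1/S genes tested, 9 were DEGs higher in periosteum and 0 were DEGs higher in muscle, with a median log2 fold change of -1.67. Of 54 G2/M genes, 14 were DEGs higher in periosteum and 0 higher in muscle, with a median of -1.76. The medians with quantile normalization were -2.01 and -2.74. These counts stood beside 0.851% of all genes called higher in periosteum and a median of 0.68 over all genes. The remaining 34 G1/S and 40 G2/M genes were not called in either direction. The erythroid list stood at 1.9% to 2.59% of the periosteum libraries and 0.328% to 0.548% of the muscle libraries, and it moved with the cell cycle genes. Its part in their difference was not tested.

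Mki67, a marker of proliferating cells, was at 68.3, 73.7 and 72.9 in muscle and 1377, 1332 and 2228 in periosteum (log2 fold change -4.46 ± 0.68 (SE), adjusted p = 0.000544). Cks2, a subunit that binds cyclin-dependent kinases, was at 144, 132 and 123 and 2771, 2622 and 1999 (log2 fold change -4.19 ± 0.42 (SE), adjusted p = 4.07e-06). Rrm2, the regulated subunit of ribonucleotide reductase, was at 261, 131 and 155 and 3498, 3096 and 3981 (log2 fold change -4.32 ± 0.55 (SE), adjusted p = 9.84e-05). For each of these 3 genes all periosteum libraries were above all muscle libraries. Pcna, the sliding clamp of DNA replication, was at 968, 759.9 and 744 and 3231, 2966 and 2953 (log2 fold change -1.90 ± 0.34 (SE), adjusted p = 0.00205). Hmgb2, a chromatin protein abundant in dividing cells, was at 539.9, 297 and 422 and 3455, 3274 and 4183 (log2 fold change -3.15 ± 0.47 (SE), adjusted p = 0.000537). Slbp, which binds histone mRNA, had a log2 fold change of -1.74 ± 0.37 (SE) and an adjusted p of 0.0101. All were above 0 in every muscle library, and the groups did not overlap. Among members chosen after their values were seen, Cdk1, the mitotic kinase, was at 70.5, 37.8 and 74.9 and 946, 962 and 1141 (adjusted p = 0.000485), and Uhrf1, which keeps DNA methylation through replication, was at 80.9, 74.1 and 87.3 and 1439.8, 1510.5 and 1440.2 (adjusted p = 0.00926).

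The histone genes Hist1h2ap and Hist1h2bp were named as among the 10 largest differences higher in periosteum, and histone genes were not counted as a list. Hist1h2ap, an H2A gene, was at 245, 180 and 275 in muscle and 14573, 10209 and 22151 in periosteum, with a log2 fold change of -6.01 ± 0.53 (SE) and an adjusted p of 8.49e-07. Hist1h2bp, an H2B gene, was at 2.21, 0 and 0.585 and 168, 146 and 80.8 (log2 fold change -6.20 ± 1.37 (SE), adjusted p = 0.0119). Histone genes of this cluster are near copies of each other, and reads could be split between them. Beside 3.5% of all genes called in either direction, 1 of 10 CDK inhibitors and D cyclins was a DEG. This was Ccnd3, cyclin D3, at 2038, 1929 and 2202 in muscle and 6046, 7371 and 6366 in periosteum (log2 fold change -1.68 ± 0.32 (SE), adjusted p = 0.00367). The counts of cell cycle DEGs were smaller without periosteum replicate 2, with 6 G1/S and 13 G2/M genes higher in periosteum and none higher in muscle. Of all 18442 genes, 122 were then called higher in periosteum, beside 157 with that library. With quantile normalization the cell cycle counts were 13 and 21, while the share of all genes called higher in periosteum was 1.78%, beside 0.851% as deposited.

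**Figure D2:**
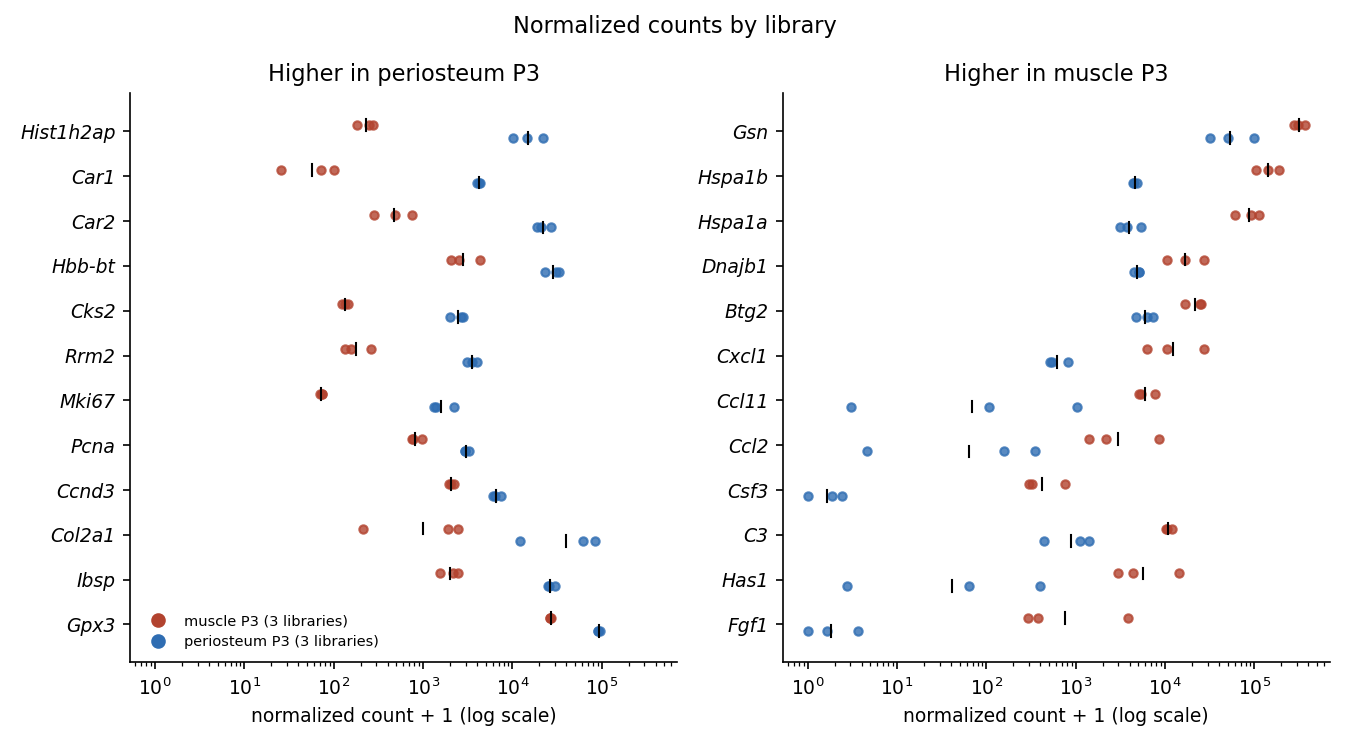
Normalized counts plus 1 (x axis, log scale) of 12 DEGs higher in periosteum P3 (left) and 12 higher in muscle P3 (right). Each point is a library, 3 of muscle (red) and 3 of periosteum (blue), and each short bar is the mean of the log2 values of a group. The groups do not overlap for any of the 24 genes. For Gpx3 the muscle libraries lie between 26499 and 27055 and the periosteum libraries between 90715 and 95324, while for Ccl11 the periosteum libraries run from 2.02 to 1030.3.

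Promoter letters are shown for genes of the groups that were higher on each side, to set the letters known from such promoters beside the values. Each window holds 250 bases before and 50 after the transcription start, 5′ to 3′ on the strand of the gene, from RefSeq on GRCm38.p6. In the windows of Hspa1b and Hspa1a, heat shock genes higher in muscle and described below, capitals mark GAANNTTC or TTCNNGAA, searched on both strands, the core of the heat shock element. In those of Mki67 and Hmgb2, capitals mark TTTGAA, or TTCAAA where it lies on the other strand, the core of the element named CHR, known from cell cycle promoters.
Hspa1b (chr17:34959189-34959488, - strand): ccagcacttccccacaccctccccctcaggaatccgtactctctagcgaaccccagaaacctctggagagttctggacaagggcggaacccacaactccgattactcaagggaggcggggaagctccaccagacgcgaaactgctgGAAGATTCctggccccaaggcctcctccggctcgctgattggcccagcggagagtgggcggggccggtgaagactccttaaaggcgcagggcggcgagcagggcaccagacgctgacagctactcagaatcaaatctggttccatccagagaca
Hspa1a (chr17:34972107-34972406, - strand): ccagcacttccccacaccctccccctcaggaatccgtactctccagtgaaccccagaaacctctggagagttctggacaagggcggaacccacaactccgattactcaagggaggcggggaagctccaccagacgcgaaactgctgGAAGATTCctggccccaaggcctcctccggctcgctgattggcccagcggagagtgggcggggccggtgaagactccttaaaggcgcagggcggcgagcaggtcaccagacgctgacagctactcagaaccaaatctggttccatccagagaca
Mki67 (chr7:135716330-135716629, - strand): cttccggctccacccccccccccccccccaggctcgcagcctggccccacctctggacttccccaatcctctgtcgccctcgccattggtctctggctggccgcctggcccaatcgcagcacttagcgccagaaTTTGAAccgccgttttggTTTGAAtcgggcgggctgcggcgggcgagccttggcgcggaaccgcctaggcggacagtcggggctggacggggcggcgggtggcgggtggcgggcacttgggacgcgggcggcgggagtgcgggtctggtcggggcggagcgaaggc
Hmgb2 (chr8:57511593-57511892, + strand): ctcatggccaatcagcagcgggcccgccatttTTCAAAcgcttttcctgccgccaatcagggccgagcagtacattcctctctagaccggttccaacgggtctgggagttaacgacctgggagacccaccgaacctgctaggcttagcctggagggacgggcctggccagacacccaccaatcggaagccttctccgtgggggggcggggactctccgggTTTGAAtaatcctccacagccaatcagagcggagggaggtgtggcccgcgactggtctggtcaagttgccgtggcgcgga
The Hspa1b and Hspa1a windows are the same at 296 of 300 bases, and the heat shock letters start at position -104 from the start site in both. These letters were found in 15.1% of all 32544 windows of this length. The 2 matches in Mki67 start at -116 and -98 and those in Hmgb2 at -218 and -30, and 17.8% of all windows held these letters. Dnajb1 had no match to the heat shock letters in its windows, and Cks2 and Rrm2 had none to TTTGAA. A match is a description of the letters in the window and was not tested as a site.

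Part of the cartilage genes were DEGs higher in periosteum P3. Of 28 cartilage genes tested, 9 were DEGs higher in periosteum and 1 was a DEG higher in muscle, and the median log2 fold change was -2.66. Of all genes, 0.851% were DEGs higher in periosteum and 2.65% higher in muscle, with a median of 0.68. Without periosteum replicate 2, 1 gene of the list, Col2a1, was a DEG, while the median was -3.09. Of all 18442 genes, 122 were then DEGs higher in periosteum. With libraries weighted by the spread of their group, 1 gene was a DEG higher in periosteum, Col11a2, and 1 higher in muscle. Of all 18442 genes, 108 and 355 were called in these directions with the weights. The adjusted p of Col2a1 was then 0.0623. With the 6 P3 libraries alone it was 0.0555, where 8 genes of the list were DEGs higher in periosteum, beside 208 of all 18442 genes. Col2a1, the main collagen of hyaline cartilage, was at 2458, 1899 and 214 in muscle and 12002, 62110.3 and 83882 in periosteum (log2 fold change -5.31 ± 1.06 (SE), adjusted p = 0.00503, and 0.0324 without periosteum replicate 2). Col11a2, a chain of the collagen that copolymerises with it, was at 275, 268 and 173 and 1249, 5101 and 4958 (log2 fold change -3.75 ± 0.81 (SE), adjusted p = 0.00986). Col11a1 and Col9a3, chains of the cartilage collagens XI and IX, had log2 fold changes of -2.93 ± 0.79 (SE) and -5.75 ± 1.62 (SE), with adjusted p-values of 0.0358 and 0.0469. In each of these genes periosteum replicate 1 was the lowest periosteum library and was still above every muscle library. Acan, the large cartilage proteoglycan, Col9a1, Col9a2 and Mia, a small secreted cartilage protein, chosen after their values were seen, were DEGs in the same direction, with log2 fold changes of -4.70, -5.51, -4.43 and -5.32. The ninth was 3110079O15Rik, listed as Snorc in a later annotation and a proteoglycan of cartilage, at 8.34, 27.4 and 0 and 293, 1804 and 653 (adjusted p = 0.0127). Chad, a leucine-rich matrix protein, was at 3629.9, 2074 and 2906 and 19406, 19279.9 and 16613 without overlap, and Comp, a matrix protein of cartilage and tendon, at 4150.4, 2206 and 2622 and 7838, 6620.1 and 14367 without overlap, but neither passed the test (adjusted p = 0.228 and 0.0928). With limma fitted to the 6 P3 libraries alone, Chad was a DEG (adjusted p = 0.0077) and Comp was not (0.0593). The member higher in muscle was Cytl1, a secreted protein first found in CD34+ cells, at 2530.1, 2210.3 and 2585 and 447, 4.41 and 0 (adjusted p = 0.0487).

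Of 29 osteoblast genes tested, 1 was a DEG, higher in periosteum, although the periosteum libraries all stood above the muscle libraries in 10. Of all genes, 0.851% were DEGs higher in periosteum, and 8.38% did not overlap in this direction. By limma, 8 of the 29 had an unadjusted p below 0.05 in the direction of periosteum and 0 in that of muscle. The median log2 fold change was -0.83, and -1.48 with quantile normalization, beside 0.68 and -0.05 for all genes. The DEG was Ibsp, bone sialoprotein, at 2138, 2433 and 1539 in muscle and 25608, 24803 and 29677 in periosteum (log2 fold change -3.73 ± 0.85 (SE), adjusted p = 0.0143). The levels within each group were close together, and the ranges were far apart. Spp1, osteopontin, was at 4379.7, 3679 and 3899.9 and 22937, 61881 and 37801 without overlap, with an adjusted p of 0.138. Sparc, osteonectin, was at 44551, 43747 and 34249 and 51861, 95422 and 77790.5, and its adjusted p of 0.041 passed while its log2 fold change of -0.84 ± 0.23 (SE) did not reach 1.5. Col1a1 and Col1a2, the chains of the main bone collagen, overlapped between the groups, since periosteum replicate 1 lay within or below the muscle range. Col1a1 was at 53399, 59693 and 41318 in muscle and 45531, 193629 and 157734 in periosteum (adjusted p = 0.279), and Col1a2 had an adjusted p of 0.476.

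The markers of osteogenic commitment varied within the periosteum. Bglap, osteocalcin, was at 921, 777 and 452 in muscle and 689, 14972 and 23181 in periosteum, where replicate 1 lay within the muscle range (log2 fold change -3.17 ± 0.98 (SE), adjusted p = 0.0679). Sp7, osterix, was at 30.6, 59 and 58.9 and 125, 377 and 389 without overlap (adjusted p = 0.329). Runx2, the factor that starts the osteoblast programme, was at 30.8, 327 and 53.1 and 268, 217 and 1306 with overlap (adjusted p = 0.264). None of these 3 passed the test. Alpl, alkaline phosphatase, was at 4531, 3549.9 and 4537 and 3531, 7136 and 8152 with overlap (log2 fold change -0.50 ± 0.54 (SE)). Progenitor and stromal markers were not DEGs either. Pdgfra, a receptor that marks mesenchymal progenitors, was at 5164, 5199 and 4213 and 1569, 3632 and 2033, with every muscle library above every periosteum library (adjusted p = 0.194). Ly6a, Sca-1, was at 25405, 20247 and 23387 and 14252, 12787 and 9417, again without overlap (adjusted p = 0.404). Cxcl12, which retains haematopoietic cells in their niche, was at 13143, 11158 and 13038 and 14272, 38432 and 30393, higher in every periosteum library (adjusted p = 0.228). Postn, periostin, was at 1991, 1849 and 3287 and 149.8, 3446 and 7784 and differed more between periosteum libraries than between tissues. Lepr, the leptin receptor of marrow stroma, was at 894, 826 and 438 and 1643, 387 and 3058, and Ctsk, a protease that marks periosteal progenitors and osteoclasts, was at 2165, 3427 and 2808 and 1551, 885 and 2544. Both overlapped between the groups. Itgav, an integrin chain, was at 271, 970.4 and 163 and 551, 92.9 and 355, and Calcr, the calcitonin receptor, was at 9.29, 5.66 and 3.83 and 0, 54.9 and 0, present above 0 in 1 periosteum library.

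Other DEGs higher in periosteum belonged to none of the lists. Gpx3, a secreted glutathione peroxidase, was at 26499, 27055 and 26589 in muscle and 91637, 90715 and 95324 in periosteum (log2 fold change -1.79 ± 0.43 (SE), adjusted p = 0.018), with little spread in either group. Among the 10 largest differences by size were Cela1, an elastase, at 13.1, 0 and 9.7 and 497, 1081 and 708 (adjusted p = 0.016), and R3hdml, at 20.1, 5.76 and 5.79 and 629, 539.5 and 2032 (adjusted p = 0.0132). Every periosteum library was above every muscle library for both. In 2 others periosteum replicate 2 was far above the rest. Serpina12, a serpin, was at 33.4, 1106 and 25.9 in periosteum and 3.28, 0 and 0 in muscle, and 5430419D17Rik was at 57.6, 799 and 31.4 and 1.13, 0.799 and 0. Without that library their adjusted p-values were 0.201 and 0.129, beside 0.0301 and 0.0197 with it.

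Gsn, gelsolin, which severs actin filaments, was a DEG higher in muscle P3, at 307543, 367169 and 276159 in muscle and 31595, 97981 and 50248 in periosteum, with a log2 fold change of 2.55 ± 0.45 (SE) and an adjusted p of 0.00208. Of 32 fibro-adipogenic genes tested, 4 were DEGs higher in muscle and 0 were DEGs higher in periosteum, where 2.65% of all genes were DEGs higher in muscle. The muscle libraries all stood above the periosteum libraries in 20, where this held for 20.6% of all genes. The median log2 fold change was 1.13 beside 0.68 for all genes, and 1.16 beside -0.05 with quantile normalization. Has1, a hyaluronan synthase, Tnxb, tenascin X, and G0s2, an inhibitor of fat breakdown, were chosen after their values were seen. Has1 was at 4343, 14235 and 2959.6 in muscle and 62.9, 1.74 and 395 in periosteum (log2 fold change 7.11 ± 1.37 (SE), adjusted p = 0.00367). Tnxb had an adjusted p of 0.0417 and G0s2 of 0.0123, and 0.242 and 0.0738 without periosteum replicate 2. Smoc2, a matrix protein, was at 22138, 23732 and 21417 and 5107, 5583 and 7488 with no overlap but did not pass (log2 fold change 1.91 ± 1.38 (SE), adjusted p = 0.49), and Ly6c1, a surface protein, was at 33878, 22829 and 30512 and 21171, 18637 and 9722 (adjusted p = 0.434).

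Heat shock and immediate early genes, which cells switch on within minutes of stress, were higher in muscle in part. Of 26 genes tested, 4 were DEGs, all higher in muscle, with a median log2 fold change of 0.98 as deposited and 1.04 with quantile normalization. Over all genes these medians were 0.68 and -0.05, and 2.65% of all genes were DEGs higher in muscle. Hspa1b, an inducible HSP70 chaperone, was at 142490, 190233 and 104612 in muscle and 4473, 4876 and 4338 in periosteum (log2 fold change 4.96 ± 0.86 (SE), adjusted p = 0.00169). Hspa1a, its near-identical copy, was at 91517, 113782 and 61268 and 5348, 3721 and 3151 (log2 fold change 4.44 ± 0.94 (SE), adjusted p = 0.00917), and reads could be shared between the pair. Dnajb1, the HSP40 partner of HSP70, was at 16585, 27153 and 10435 and 4471, 5159 and 5043 (log2 fold change 1.78 ± 0.37 (SE), adjusted p = 0.00785). In all 3 the muscle libraries were above the periosteum libraries and replicate 2 was the highest muscle library. Btg2, an antiproliferative gene, was at 25533, 24466 and 16734 and 6265, 7354 and 4715 (log2 fold change 1.86 ± 0.49 (SE), adjusted p = 0.033, and 0.0687 without periosteum replicate 2). Egr1, a transcription factor of the first response, was at 8647, 64181 and 43794 and 15477, 10040.5 and 8375, with muscle replicate 1 inside the periosteum range (adjusted p = 0.379). The list summed to 4.25, 5.95 and 4.02% of the muscle libraries and 1.35, 1.38 and 1.4% of the periosteum libraries. The muscle digest lasted longer, and its part in these genes cannot be told apart from that of the tissue.

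Of the lists examined, chemokines and cytokines had the most DEGs higher in muscle. Of 33 genes tested, 10 were DEGs higher in muscle and none was a DEG higher in periosteum, where 2 had an unadjusted p below 0.05. The median log2 fold change was 3.07, and 1.81 with quantile normalization, beside 0.68 and -0.05 for all genes, of which 2.65% were DEGs higher in muscle. Cxcl1, which attracts neutrophils, was at 10449, 27190.4 and 6323 in muscle and 545, 516 and 817 in periosteum (log2 fold change 4.31 ± 1.19 (SE), adjusted p = 0.0421). Ccl2, which attracts monocytes, was at 2199.6, 8439 and 1412 and 352, 3.67 and 158 (log2 fold change 5.54 ± 1.33 (SE), adjusted p = 0.019). Muscle replicate 2 was the highest library for both. Ccl7, a close relative of Ccl2, was at 2186, 7344 and 1603 and 305, 0.898 and 108 (adjusted p = 0.0448). Ccl11, which attracts eosinophils, was at 5384, 7681 and 5059 and 2.02, 1030.3 and 105 (log2 fold change 6.43 ± 1.44 (SE), adjusted p = 0.0129). Csf3, the granulocyte growth factor, was at 325, 747 and 299 and 0, 0.872 and 1.39 (adjusted p = 0.000795). In periosteum these genes were at or near 0 in at least 1 library, other than Cxcl1. Ccl8, another monocyte chemokine, was at 148, 409.9 and 235 in muscle and was listed at 0 in all periosteum libraries (adjusted p = 7.16e-05). Cxcl13, Cxcl2, Lif, a cytokine of the IL-6 family, and Ptgs2, the inducible cyclooxygenase, were DEGs too, with adjusted p-values of 0.033, 0.0177, 0.0468 and 0.0435. These 5 genes and Il6 were chosen after their values were seen. Il6, a cytokine of inflammation, was at 1671, 4236 and 1165 and 164, 597 and 139.9 without overlap and did not pass (adjusted p = 0.211). Without periosteum replicate 2, 3 genes of the list were DEGs, namely Ccl8, Ccl11 (adjusted p = 0.00223) and Csf3 (0.00456), but not Cxcl1 (0.124), Ccl2 (0.135) or Ccl7 (0.283). Of all 18442 genes, 192 were then DEGs higher in muscle.

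Of 18 complement genes, 3 were DEGs, all higher in muscle, and 12 did not overlap between the groups in that direction. Of all genes, 2.65% were DEGs higher in muscle and 20.6% did not overlap in that direction. Cfd and Cfp, and the protease genes below, were chosen after their values were seen. C3, the central component, was at 11844, 10587 and 10178 in muscle and 1111, 1422 and 440 in periosteum (log2 fold change 3.61 ± 0.80 (SE), adjusted p = 0.0119). Cfd, the protease of the alternative pathway, was at 39.3, 104 and 75.4 and was listed at 0 in all periosteum libraries (adjusted p = 0.0108), and Cfp, properdin, was at 23, 63.8 and 23.7 and 2.34, 0 and 5.57 (adjusted p = 0.0406, and 0.187 without periosteum replicate 2). Of 23 interferon and MHC genes none was a DEG, where 1 had an unadjusted p below 0.05 in the direction of muscle and 0 in that of periosteum. Of 31 proteases and inhibitors, 2 were DEGs, both higher in muscle. These were Plau, urokinase, at 427, 853 and 411 and 12.5, 20.1 and 128 (adjusted p = 0.0306), and Mmp27, a metalloproteinase, at 29.5, 70.4 and 15.3 and listed at 0 in periosteum (adjusted p = 0.041). Neither was called with quantile normalization (adjusted p = 0.0616 for Plau and 0.151 for Mmp27), without periosteum replicate 2 (0.112 and 0.11) or with libraries weighted by the spread of their group (0.0576 and 0.087).

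**Figure D3:**
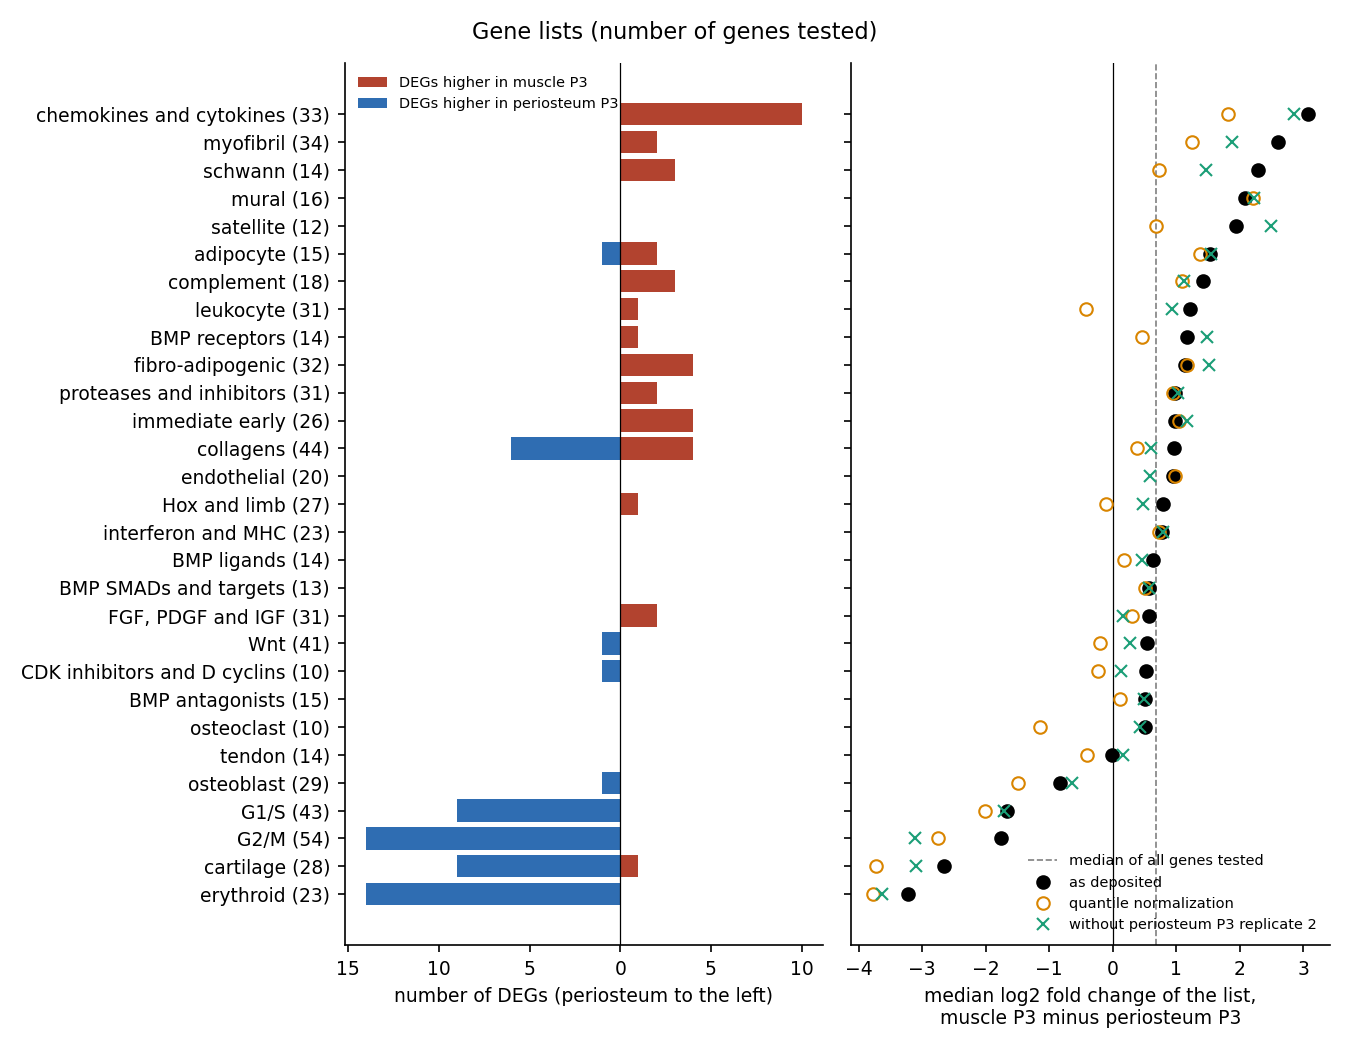
Left: number of DEGs per gene list, higher in muscle P3 to the right (red) and higher in periosteum P3 to the left (blue), with the number of genes tested in brackets. Right: median log2 fold change of each list as deposited (filled circles), with quantile normalization (open circles) and without periosteum P3 replicate 2 (crosses), where the dashed line is the median of all genes, 0.68. The erythroid list has 14 DEGs on the periosteum side and the chemokine and cytokine list 10 on the muscle side.

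Collagen DEGs were found in both directions. Of 44 collagen genes, 4 were DEGs higher in muscle and 6 higher in periosteum, the latter all chains of the cartilage collagens II, IX and XI, beside 2.65% and 0.851% of all genes. Without periosteum replicate 2, 2 were DEGs higher in muscle, Col4a3 and Col6a6, and 1 higher in periosteum, Col2a1. With weights per group, 3 were DEGs higher in muscle and 1 higher in periosteum, Col11a2. Of all 18442 genes, 192 and 122 were called in these directions without periosteum replicate 2, and 355 and 108 with the weights. The 4 higher in muscle, chosen after their values were seen, were Col4a3 and Col4a6, chains of basement membrane collagen, Col6a6 and Col23a1. Col4a3 was at 1335, 2018 and 69.9 in muscle and 1.89, 0.815 and 21.2 in periosteum (log2 fold change 6.88 ± 1.08 (SE), adjusted p = 0.000743). Col6a6, a chain of microfibrillar collagen VI, was at 459.5, 763 and 417 and 1.42, 2.47 and 14.8 (log2 fold change 6.69 ± 1.22 (SE), adjusted p = 0.00226). Col4a6 and Col23a1 were below 100 in every library, and neither was a DEG with quantile normalization (adjusted p = 0.148 and 0.173). Col3a1, of soft tissue, was at 112587, 132716 and 104769 and 25909.6, 32392 and 68906 without overlap (log2 fold change 1.59 ± 0.62 (SE), adjusted p = 0.154). Col6a1, Col6a2, Col4a1 and Col4a2 had log2 fold changes of 0.15 ± 0.39 (SE), 0.08 ± 0.46 (SE), 0.58 ± 1.07 (SE) and 0.02 ± 0.82 (SE), and none was a DEG. Tendon genes gave no DEG among 14, with 2 at an unadjusted p below 0.05 in the direction of muscle and 1 in that of periosteum. Dcn, the proteoglycan decorin, was at 95005, 121711 and 90481 and 36519, 60198 and 32245, and Fmod, fibromodulin, at 29637, 20332 and 23697 and 32987, 35947 and 39232. Dcn was higher in every muscle library and Fmod in every periosteum library, with adjusted p-values of 0.119 and 0.688. Thbs4, thrombospondin 4, was at 17812, 11142 and 17886 and 14174, 10708 and 12782 with overlap.

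Transcripts of the muscle fibre were a small share of both groups. Of 34 myofibril genes, 2 were DEGs, both higher in muscle, and the list summed to 0.0434, 0.0649 and 0.0415% of the muscle libraries and 0.014, 0.0145 and 0.0194% of the periosteum libraries. Of all genes, 2.65% were DEGs in that direction. In 20 of the 34 the muscle libraries all stood above the periosteum libraries, beside 20.6% of all genes. By limma, 16 had an unadjusted p below 0.05 in the direction of muscle and 0 in that of periosteum. The median log2 fold change was 2.6, and 1.24 with quantile normalization, beside 0.68 and -0.05 for all genes. The DEGs were Tpm2, a tropomyosin, at 1625, 1812 and 1645 and 69, 387 and 811 (log2 fold change 2.59 ± 0.69 (SE), adjusted p = 0.0333, and 0.059 without periosteum replicate 2), and Xirp1, a protein of the fibre's junctions, at 152, 132 and 127 and listed at 0 in periosteum (adjusted p = 0.000774). Xirp1 was chosen after its values were seen. Acta1, skeletal actin, was at 889, 1730.3 and 757 and 211, 4.41 and 224 without overlap (adjusted p = 0.0756). Myl1, a myosin light chain, and Atp2a1, the calcium pump of fast fibres, had adjusted p-values of 0.25 and 0.181. Satellite cell genes gave no DEG among 12, with 6 at an unadjusted p below 0.05, all in the direction of muscle. With limma fitted to the 6 P3 libraries alone, 3 satellite cell genes were DEGs higher in muscle, beside 1067 of all 18442 genes. Cdh15, a cadherin of these cells, was at 46.4, 22.9 and 41.6 and 0, 635 and 1.38, highest in periosteum replicate 2. Vcam1, an adhesion molecule, was at 3244, 3991 and 2049 and 1446, 4243 and 3709, Chodl at 644, 469 and 825 and 238, 3666 and 347, and Heyl, a Notch target, at 1154, 649 and 1986 and 350.3, 2.19 and 651. All 4 overlapped between the groups.

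Few genes of the remaining cell type lists were DEGs. Of 14 Schwann cell genes, 3 were DEGs higher in muscle, among them Cdh19, a cadherin of these cells, at 30.6, 21.6 and 53.7 and 0, 0.486 and 0.681 (adjusted p = 0.00169), and Mal, a myelin protein, at 44.3, 36 and 53 and listed at 0 in periosteum (adjusted p = 0.00779). This stood beside 2.65% of all genes called in that direction, and 1 of the 14 was a DEG with quantile normalization, Mal (adjusted p = 0.0452), where that of Cdh19 was 0.199. Pmp22, Mbp, S100b and Ncmap, of the same list, had adjusted p-values of 0.499, 0.949, 0.1 and 0.779. Cdh19 and Mal, and Hk3 below, were chosen after their values were seen. Of 31 leukocyte genes, 1 was a DEG, Hk3, a hexokinase, at 4.37, 13.9 and 8.95 in muscle and listed at 0 in periosteum (adjusted p = 0.03), and this call was lost with quantile normalization (adjusted p = 0.415), without periosteum replicate 2 (0.0827) and with weights per group (0.139). The leukocyte list summed to 949.9, 543 and 646 normalized counts in muscle and 3132, 2431 and 1776 in periosteum, and 10 of its 32 genes were at 0 in all periosteum libraries. The sum was higher in every periosteum library, while the median log2 fold change was 1.22, and turned to -0.43 with quantile normalization. Fcer1g, an Fc receptor subunit, was at 53.8, 35.9 and 18 and 1302, 493 and 658, and Rac2, a GTPase of blood cells, was at 60.6, 24.6 and 32.7 and 159, 636 and 542. Lyz2, lysozyme, was at 199, 111 and 199.9 and 77.6, 419 and 119, and S100a8, of neutrophils, was at 69.8, 0 and 32.3 and 576, 1.72 and 0.504, both with overlap. Fcer1g and Rac2 were higher in every periosteum library without passing the test (adjusted p = 0.111 and 0.0879). Osteoclast genes gave no DEG by limma among 10, with 0 at an unadjusted p below 0.05. Mmp9, a gelatinase, was at 47.7, 312 and 41.1 and 195, 12783 and 65.5, and Acp5, tartrate-resistant phosphatase, at 151, 224 and 223 and 1287, 1.78 and 922, so periosteum replicate 2 was at the extreme of both, at opposite ends. Nfatc1, the osteoclast transcription factor, was at 879, 789.6 and 774 and 708, 184 and 409 (adjusted p = 0.788).

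Of 15 adipocyte genes, 2 were DEGs higher in muscle, Cfd and Cidec, a lipid droplet protein (adjusted p = 0.0348, and 0.15 without periosteum replicate 2), and 1 was higher in periosteum. Of all genes, 2.65% and 0.851% were called in these directions. These DEGs were chosen after their values were seen. The latter was Adipoq, adiponectin, a fat hormone also made by marrow stroma, at 33.6, 111 and 60 in muscle and 977, 1250 and 1970 in periosteum (log2 fold change -4.44 ± 1.03 (SE), adjusted p = 0.0155). Fabp4, a fatty acid carrier of fat and capillary endothelium, was at 30979.7, 17339.5 and 28609 and 13919.6, 10581 and 9903, Cd36, a fatty acid transporter, at 23513, 13654 and 20031 and 9588, 7501 and 3676, and Lpl, lipoprotein lipase, at 6433, 6411 and 6594 and 1525, 3666 and 4185. Every muscle library was above every periosteum library for these 3, and none passed the test (adjusted p = 0.645, 0.547 and 0.206). Apoe overlapped, at 7983, 9244 and 7774 and 4954, 7864 and 8309.

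Because CD105 is a BMP co-receptor, the BMP pathway was read by role. None of 14 ligands was a DEG, with 2 and 1 at an unadjusted p below 0.05 in the direction of muscle and of periosteum. Bmp2, which induces bone, was at 144, 934 and 476 in muscle and 305, 0 and 111 in periosteum with overlap (log2 fold change 3.63 ± 1.81 (SE), adjusted p = 0.28). Gdf10, a ligand of the family, was at 2301, 3869 and 3209.8 and 446, 721 and 809.8 and missed the threshold (adjusted p = 0.0557), and Inhba, the activin A subunit, was at 187, 128 and 322 and 506, 1071 and 1116, higher in every periosteum library (adjusted p = 0.146). Of 14 receptors, 1 was a DEG, the type I receptor Bmpr1b, at 45.6, 46.6 and 47.9 in muscle and 0.407, 0 and 0 in periosteum (adjusted p = 0.0306, and 0.0979 without periosteum replicate 2). Of 15 antagonists none was a DEG, with 1 and 1 at an unadjusted p below 0.05 in each direction. Grem1, the antagonist gremlin that marks skeletal stem cells, was at 10.9, 32 and 17.3 and 77.1, 132 and 245 without overlap (adjusted p = 0.239). Of 13 SMADs and target genes none was a DEG, with 1 at an unadjusted p below 0.05. Gdf10, Inhba and Bmpr1b were chosen after their values were seen. The medians of these 4 groups, from 0.51 for antagonists to 1.17 for receptors, stood beside 0.68 for all genes, of which 2.65% were DEGs higher in muscle and 0.851% higher in periosteum.

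Other signalling lists gave few calls, beside 2.65% of all genes called higher in muscle and 0.851% higher in periosteum. Of 41 Wnt genes, 1 was a DEG, Wnt4, at 40.4, 42.6 and 25.6 in muscle and 225, 396 and 179 in periosteum (log2 fold change -2.80 ± 0.67 (SE), adjusted p = 0.0188, and 0.0841 without periosteum replicate 2). Of 31 FGF, PDGF, IGF and related genes, 2 were DEGs higher in muscle. One was Figf, VEGF-D, a growth factor of lymphatic vessels, with an adjusted p of 0.0363. The other, Fgf1, a growth factor that binds all FGF receptors, was at 289, 380.4 and 3846 and 0.635, 0 and 2.68 (log2 fold change 8.69 ± 1.63 (SE), adjusted p = 0.00301), with muscle replicate 3 well above the other muscle libraries. Of 27 Hox and limb factors, 1 was a DEG, Hoxd10, at 12, 27 and 11.5 in muscle and listed at 0 in periosteum (adjusted p = 0.0373), and this call was lost with quantile normalization (adjusted p = 0.129), without periosteum replicate 2 (0.106) and with weights per group (0.0929). Wnt4, Figf and Hoxd10 were chosen after their values were seen.

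The largest differences on the muscle side were in genes at or near 0 in periosteum, where the size of the fold change depends on the pseudocount. Olfr78, an olfactory receptor expressed outside the nose, was at 834, 421 and 735 in muscle and listed at 0 in periosteum (adjusted p = 7.16e-05), as was Rbpms2, an RNA-binding protein of smooth muscle, at 417, 228 and 304 (adjusted p = 0.00169). Tppp, a tubulin-binding protein, was at 724, 580.1 and 601 and 0.747, 0 and 0.685 (adjusted p = 0.000901). Casq2, a calcium-binding protein of the sarcoplasmic reticulum, was at 6319, 686 and 1245 and 20.1, 1.41 and 0.753 (log2 fold change 8.62 ± 1.31 (SE), adjusted p = 0.000544). Muscle replicate 1 was the highest for Casq2 and Olfr78. Aldh3a2, a fatty aldehyde dehydrogenase, was at 1229, 2944 and 1318 and 0, 0.734 and 86.3 (log2 fold change 8.30 ± 1.12 (SE), adjusted p = 0.000247). Il1rl2, the receptor for IL-36, was at 455, 768 and 324 and 0, 0.862 and 1.34 (adjusted p = 0.00528). The unnamed transcripts 4833403I15Rik and AI607873 completed the largest differences, with adjusted p-values of 0.0119 and 0.0132, and 0.0523 and 0.0513 without periosteum replicate 2.

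Whether the tissue difference of P3 cells was the same as that of the other subpopulations was tested as a difference of differences. Against P1 cells, 46 genes (0.249%) differed, of which 40 (0.217%) had a tissue difference shifted toward periosteum in P3 and 6 (0.0325%) one shifted toward muscle. The count of 46 moved to 15 and 22 without muscle P3 replicate 2 or 3, to 28 to 29 without a muscle P1 library, and to 78 to 120 without periosteum P3 replicate 2 or 3 or periosteum P1 replicate 2 or 3. In P1 itself 904 genes (4.9%) were DEGs between the tissues, 801 (4.34%) higher in muscle and 103 (0.559%) higher in periosteum, among the latter 4 erythroid genes. In P2, 5157 genes (28%) were DEGs, 3246 (17.6%) higher in muscle and 1911 (10.4%) higher in periosteum, among the latter 21 erythroid genes. Of the 157 P3 DEGs higher in periosteum, 22 were among the 46, and of the 488 higher in muscle, 6. Both tests used the same P3 values, so this overlap is not separate evidence about these genes. Of the erythroid list, 4 members were among the 40. Car2 was at 127 ± 54 in muscle P1 and 321 ± 294 in periosteum P1 (SD, n = 3), beside 503 ± 231 and 22199.7 ± 4086 in P3, and its tissue difference was shifted by -4.77 ± 0.89 (SE) (adjusted p = 0.0159). Hemgn and Trim10, a RING protein of erythroid maturation, were shifted by -5.27 and -5.24. Both were chosen after their values were seen, as were Urod, Blvrb, Rhd, Gmnn and Aurka below. Urod, Blvrb and Rhd are outside the erythroid list. The list summed to 0.116, 0.09 and 0.0458% of the muscle P1 libraries and 0.291, 0.36 and 0.137% of the periosteum P1 libraries. The haem synthesis enzyme Urod was shifted by -3.94 ± 0.75 (SE) (adjusted p = 0.0184). Blvrb, a reductase of haem breakdown products, and Rhd, the Rh antigen, were shifted by -3.72 and -4.83. Cell cycle members among the 40 were Gmnn, geminin, an inhibitor of re-replication, shifted by -5.95 ± 1.25 (SE) (adjusted p = 0.0351), and Aurka, a mitotic kinase, shifted by -6.47 ± 1.24 (SE) (adjusted p = 0.0192). Hist1h2ap was at 155 ± 85.4 and 653 ± 444 in P1 and was shifted by -3.98 ± 0.75 (SE) (adjusted p = 0.0172). Cldn13 was shifted by -5.24 ± 0.97 (SE) (adjusted p = 0.0159).

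In another set of the 46 genes, namely Esam and, chosen after their values were seen, Tcap, Nup210 and Gatm, the larger tissue difference was in P1. Esam was at 1512 ± 527 in muscle P1 and 4.78 ± 5.74 in periosteum P1, beside 8658 ± 2259 and 6000.3 ± 1789 in P3, and was shifted by -7.91 ± 1.06 (SE) (adjusted p = 0.000701). Tcap, a protein of the sarcomere, was at 1306 ± 276 in muscle P1 and 0.249 ± 0.431 in periosteum P1, beside 76.6 ± 16.5 and 169 ± 163 in P3, and was shifted by -10.32 ± 1.53 (SE) (adjusted p = 0.00144). Nup210, a nuclear pore protein, and Gatm, the first enzyme of creatine synthesis, had shifts of -10.96 and -9.85. Unlike Esam, Tcap and Gatm, Nup210 was also a DEG higher in periosteum in P3. Its larger difference, in P1, was in the opposite direction, toward muscle. The larger tissue difference was in P3 for 3 genes shifted toward muscle, Aldh3a2 and, chosen after their values were seen, Lrrc47 and Cyp1a1. Aldh3a2 was at 603 ± 134 and 389 ± 126 in P1 and was shifted by 7.64 ± 1.59 (SE) (adjusted p = 0.0334). Lrrc47 and Cyp1a1, a target of the aryl hydrocarbon receptor, were shifted by 8.43 and 6.65, and Cyp1a1 was listed at 0 in all P1 libraries of both tissues. For the heat shock, chemokine, complement and fibro-adipogenic lists no gene differed between P3 and P1 by this test. A gene that did not pass is not shown to have the same tissue difference in both subpopulations.

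**Figure D4:**
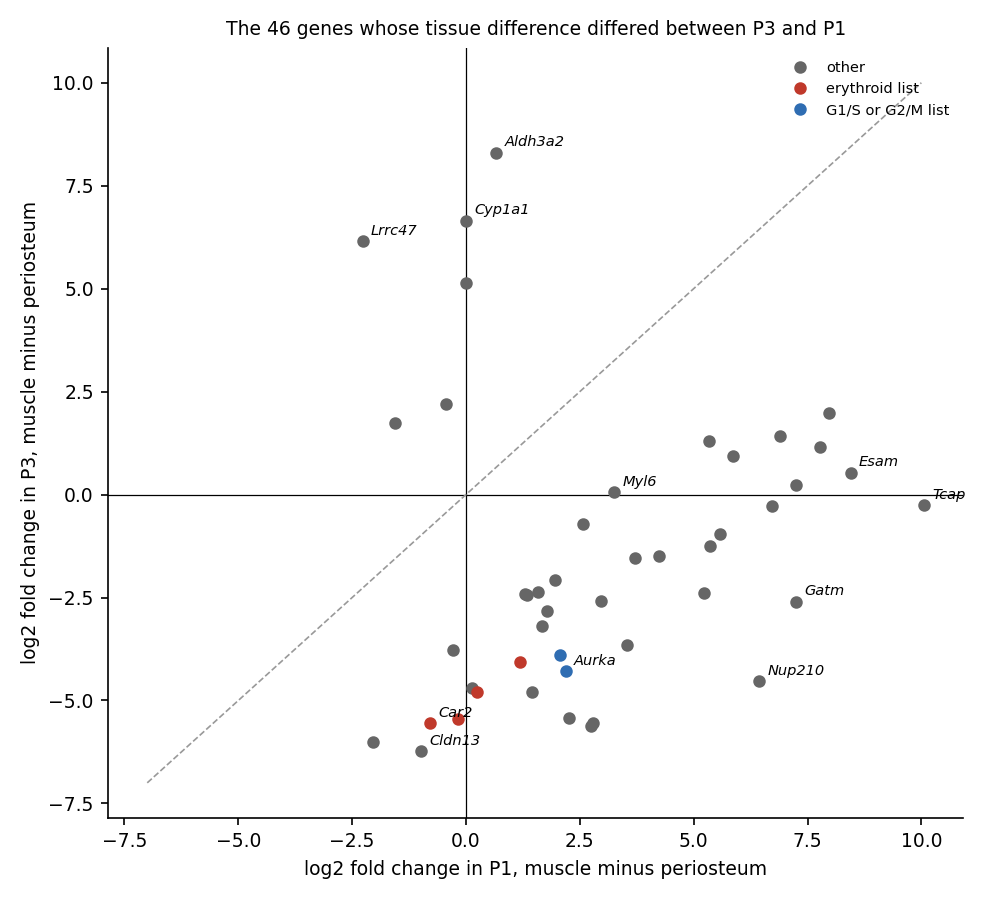
The 46 genes whose tissue difference differed between P3 and P1, with the log2 fold change of muscle minus periosteum in P1 on the x axis and in P3 on the y axis. The dashed line is equality, red points are members of the erythroid list and blue points of the G1/S or G2/M lists. The erythroid members lie between -0.79 and 1.19 in P1 and between -5.55 and -4.06 in P3, and Esam and Tcap lie far to the right at a P3 value near 0.

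Against P2 cells, 2224 genes (12.1%) differed, 978 (5.3%) shifted toward muscle in P3 and 1246 (6.76%) toward periosteum, and 1439 differed without muscle P3 replicate 2. Of 34 myofibril genes, 27 were shifted toward periosteum, and the list median was 10.44 in P2 beside 2.60 in P3. Acta1 was shifted by -7.79 ± 1.81 (SE) and Tpm2 by -7.83 ± 0.97 (SE) (adjusted p = 0.0064 and 1.56e-05). Of 28 cartilage genes, 18 were shifted toward muscle, with list medians of -9.16 in P2 and -2.66 in P3. Col2a1 was shifted by 5.55 ± 1.5 (SE) and Col11a1 by 7.62 ± 1.11 (SE) (adjusted p = 0.0175 and 8.83e-05). Both were higher in periosteum in P3 and in P2, by less in P3. Of the erythroid list, 3 genes were shifted toward muscle, and of the G1/S and G2/M lists 8 and 5, with 1 G2/M gene shifted toward periosteum and P2 medians of -4.68, -3.58 and -4.53. The erythroid list summed to 1.65, 1.26 and 0.991% of the muscle P2 libraries and 25.7, 41.3 and 34.2% of the periosteum P2 libraries. Pcna was shifted by 1.80 ± 0.47 (SE) (adjusted p = 0.0153). Btg2 and Dnajb1 were shifted toward muscle, by 3.97 ± 0.70 (SE) and 1.83 ± 0.53 (SE) (adjusted p = 0.000626 and 0.0242). Gpx3, higher in periosteum P3, was at 40978 ± 6553 in muscle P2 and 21020 ± 11431 in periosteum P2 (SD, n = 3), and was shifted by -2.87 ± 0.60 (SE) (adjusted p = 0.00299).

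**Figure D5:**
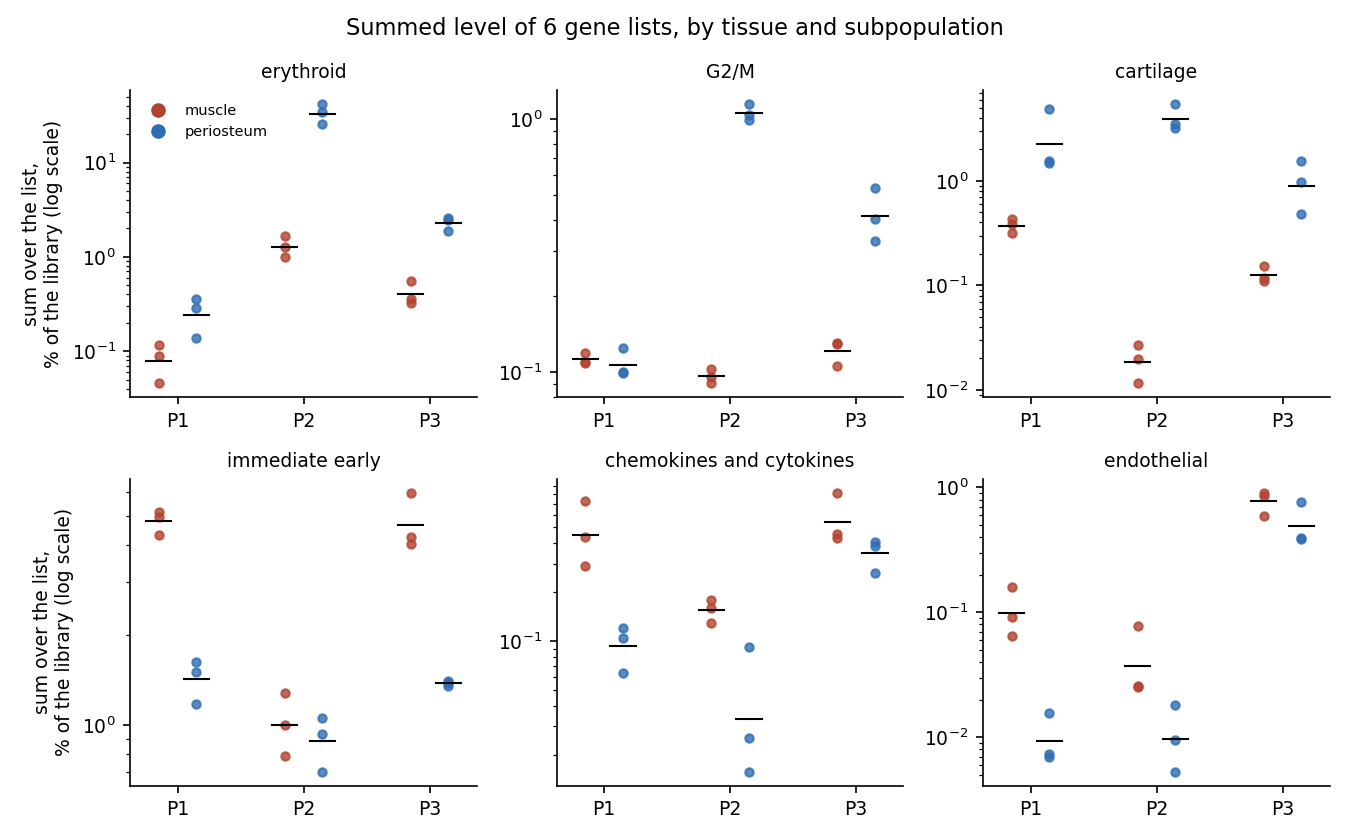
Sum of 6 gene lists as a percentage of each library's total normalized counts (y axis, log scale) in P1, P2 and P3 cells (x axis) of muscle (red) and periosteum (blue). Points are libraries, 3 in each group, and bars are means of the log2 values. In P3 the erythroid and G2/M lists lie higher in periosteum without overlap, the immediate early list lies higher in muscle without overlap, and the endothelial list overlaps.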

How the data were processed

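RNA of sorted Prx1+ CD45- cells was sequenced after SMART-Seq v4 amplification and Nextera XT library preparation, per the labels. The authors used Trim Galore for trimming, STAR for alignment and DESeq2 for normalization, per the methods of the study. The deposited table holds the resulting signal, normalized counts that are not whole numbers, for 30153 genes and a transgene in 27 libraries, and the genome build is not given in the sources used here. The P3 libraries summed to 9977798 to 11976931 normalized counts. Whole reads were not recovered, so the counting error of a value is unknown. Values were not divided by gene length. Levels of different genes were compared to choose which genes to name and to call a level low or abundant. They were also added up in the sums of lists, all without a correction for length.

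Values were taken as log2(normalized count + 1). Genes at 10 or more in at least 3 of the 27 libraries were kept (18442), and 11711 were removed. limma 3.58.1 in R 4.3.3 was fitted to all 27 libraries with 9 group means and a mean-variance trend, Benjamini-Hochberg adjustment ran over all genes kept, and a DEG needed an adjusted p under 0.05 and a log2 fold change over 1.5 in size. The spread was shared by all 9 groups. p-values thus rest on this shared spread and not on that of the P3 libraries alone. The median SD of a gene within a group ran from 0.418 in muscle P3 to 1.49 in periosteum P2, on the log2 scale. The groups were therefore not equally variable, which the shared estimate does not take into account. The labels do not tie the libraries to animals. Figures were drawn with matplotlib 3.10.9 in Python 3.11.15, with pandas 2.3.3 and numpy 2.4.6. Replicate numbers were not taken as pairs.

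Gene lists and members were chosen with earlier results of these data known. Genes named by rule were in each direction the 10 DEGs of largest fold change that did not overlap and had a mean of at least 100 in the higher group, the sort markers and 18 genes of the study's text, DEGs among the 6 highest members of each list, the 4 highest members of lists of other cell types, the 5 highest DEGs in each direction and the 8 highest collagens. Other genes were chosen after their values were seen, and some genes are not reported here. Alternatives were pseudocounts of 0.1 and 5, no filter, a mean of at least 50, other scalings, no trend, weights per group, the 6 P3 libraries alone, a replicate block, a log2 fold change above 1 and leaving out each library.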

Additional observations from a re-analysis of the deposited data

Results flagged for a closer look

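Named genes are given here where the tissue difference, muscle minus periosteum, differed between P3 and another subpopulation by the limma test of that difference. Values are the P3 difference minus the other one on the log2 scale, and a positive value is a shift toward muscle in P3.

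Against P1, the shift was toward periosteum for the erythroid genes Car2 (-4.77), Hemgn (-5.27) and Trim10 (-5.24), and for Rhd (-4.83), Urod (-3.94) and Blvrb (-3.72), of the red cell surface and of haem metabolism. It was toward periosteum for the cell cycle genes Gmnn (-5.95) and Aurka (-6.47), for Hist1h2ap (-3.98) and Cldn13 (-5.24), and for Esam (-7.91), Nup210 (-10.96), Tcap (-10.32) and Gatm (-9.85). It was toward muscle for Aldh3a2 (7.64), Cyp1a1 (6.65) and Lrrc47 (8.43).

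Against P2, the shift was toward muscle for the cartilage and tendon genes Col2a1 (5.55), Col11a1 (7.62), Col11a2 (7.0), Acan (5.65), Mia (6.87), Cytl1 (9.20), Comp (5.64) and Fmod (4.19), and for Spp1 (5.25). It was toward muscle for Hba-a2 (2.34), Hbb-bs (2.31), Blvrb (2.24), Slbp (1.62) and Pcna (1.80), and for Btg2 (3.97), Dnajb1 (1.83), Cxcl2 (7.11), Cdh19 (5.99), Col4a3 (5.85) and Cyp1a1 (7.13). Olfr78, listed at 0 in periosteum P3, was shifted by 7.30, a value that depends on the pseudocount. The shift was toward periosteum for the fibre genes Tpm2 (-7.83), Acta1 (-7.79), Myl1 (-9.14), Atp2a1 (-8.31) and Tcap (-11.82), for Gatm (-9.15), Fabp4 (-5.95), Vcam1 (-4.84) and Esam (-5.50), and for Col1a1 (-2.86), Col4a2 (-3.79), Cxcl12 (-2.67), Gpx3 (-2.87) and Wnt4 (-3.33).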

How the results depend on the processing

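The 645 DEGs became 381 with a mean of at least 50 in the 6 P3 libraries and 1275 with the 6 P3 libraries alone. The 488 higher in muscle became 225 and 1067 under these settings and 269 with quantile normalization, where the 157 higher in periosteum became 328. Leaving out each library in turn gave 234 to 1218 DEGs, 157 to 1043 higher in muscle and 77 to 177 higher in periosteum. The 46 genes of the P3 and P1 difference became 74 with a pseudocount of 5, 81 with libraries rescaled to the same total and 27 with weights per group, and ranged from 15 to 120 over the left-out libraries. The 2224 of the P3 and P2 difference became 833 with weights per group and ranged from 1439 to 2962. The cause of these changes was not tested, other than that the mean of at least 50 tests fewer genes (11311). A replicate block gave 605 DEGs, 453 higher in muscle and 152 higher in periosteum, and 45 and 2158 for the P1 and P2 differences. After the group means were removed, the residuals of same-numbered muscle P3 and periosteum P3 libraries correlated at -0.0405 to 0.00143. Those of libraries with other numbers correlated at -0.0122 to 0.0351, so the number was not taken to pair them. Of the 93 named DEGs, none changed sign in any of these settings. With a library left out, 48 (without muscle P3 replicate 2) to 85 (without periosteum P3 replicate 3) stayed DEGs, and 55 without periosteum P3 replicate 2. With weights per group 66 stayed DEGs, and 69 with the 6 P3 libraries alone. A pseudocount of 0.1 kept 75, and quantile normalization and no filter kept 77 each.

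Genes that changed sign were not DEGs between muscle P3 and periosteum P3. With quantile normalization log2 fold changes became -0.35 for Ptprc, -1.19 for Calcr, -0.089 for Itgav, -0.0904 for Lyz2, -1.85 for S100a8, -1.14 for Acp5, -0.014 for Col6a2 and -0.076 for Col4a2. With libraries rescaled to the same total they became -0.038 for S100a8 and -0.037 for Col4a2, and with the same median over genes above 0 in all 6 P3 libraries -0.0016 for Lyz2, -0.0605 for S100a8 and -0.038 for Col4a2. With a pseudocount of 5 they became -0.052 for Calcr and -0.21 for S100a8, and with 0.1 -0.49 for S100a8. Over the left-out libraries the sign changed for Acp5 (-2.47 to 1.96), Calcr (-0.11 to 2.79), Cdh15 (-0.095 to 4.56), Chodl (-0.84 to 1.13), Col4a2 (-0.062 to 0.15), Col6a1 (-0.062 to 0.37), Col6a2 (-0.32 to 0.35), Eng (-0.33 to 0.15), Itgav (-0.34 to 0.96), Lyz2 (-0.45 to 0.76), Mbp (-1.16 to 1.69), Ncmap (-3.33 to 0.47), Postn (-1.17 to 1.67), S100a8 (-1.57 to 2.72), Tcap (-1.60 to 0.69) and Vcam1 (-0.41 to 0.36), given from the lowest to the highest value.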

Other observations

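Mitochondrial transcripts, a further list, showed no call. None of 13 was a DEG by limma, with 2 at an unadjusted p below 0.05 in the direction of periosteum, and their median log2 fold change was -0.41 beside 0.68 for all genes.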
